A study of Mus musculus with 12 samples.

Results

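Signals of 8 imprinted genes with known roles in growth and in progenitor cells were compared between side population cells of 2 mouse muscles: the long noncoding RNA genes H19 and Meg3 and the protein-coding genes Dlk1, Peg3, Mest, Plagl1, Grb10 and Ndn. A probe set, the group of short probes that measures 1 transcript region on the array, was counted for a gene when that gene was its only symbol in the platform annotation. The rule gave 7 of the 18193 genes with a probe set of their own, and 33 of the 45101 probe sets on the array: 11 for Meg3, 8 for Ndn, 5 for Peg3, 3 each for Plagl1 and Grb10, 2 for Dlk1 and 1 for Mest. H19 had 0. The annotation lists it on 1 probe set together with another symbol, which was therefore not analysed here.

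The first group was side population cells of the extraocular muscles (EOM), which move the eye, with 6 arrays. The second was side population cells of the tibialis anterior (TA), a hind limb muscle, also with 6 arrays. Side population cells are the few cells of a dissociated tissue that pump out the dye Hoechst. Each array held 1 preparation, and the labels describe the preparations as isolated independently. Strain, genotype, age, sex, treatment and the number of mice per preparation are not given in the sources used here, so p-values measure the spread between preparations.

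An imprinted gene is read mainly from the copy inherited from a given parent, because the other copy carries a silencing mark, often DNA methylation set in the germ line. Many such genes regulate growth before birth: paternally expressed genes such as Dlk1, Peg3, Mest and Igf2 are often growth promoting, and maternally expressed genes such as H19, Grb10 and Cdkn1c often restrain it. Several fall in most tissues after birth and stay on in adult stem and progenitor cells. Peg3, also called PW1, is known in muscle from satellite cells and from interstitial progenitor cells. The arrays measured the RNA of both parental copies together, so no value here bears on which copy was read.

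The member genes lie on 5 chromosomes: Meg3 and Dlk1 on chromosome 12 in 1 imprinted cluster, Peg3 and Ndn on 7, Mest on 6, Plagl1 on 10 and Grb10 on 11. RefSeq promoter sequences (build GRCm38.p6, 250 bases before to 50 after the transcript start) were at hand for 7 of the 8 genes. The promoters below belong to the 4 genes that had a probe set past the threshold, and CpG pairs, the sites of DNA methylation, are in capitals. They lie at chr12:109540746-109541045 (plus strand, Meg3), chr7:6730370-6730669 (minus strand, Peg3), chr6:30737800-30738099 (plus strand, Mest) and chr10:13090582-13090881 (plus strand, Plagl1).
Meg3: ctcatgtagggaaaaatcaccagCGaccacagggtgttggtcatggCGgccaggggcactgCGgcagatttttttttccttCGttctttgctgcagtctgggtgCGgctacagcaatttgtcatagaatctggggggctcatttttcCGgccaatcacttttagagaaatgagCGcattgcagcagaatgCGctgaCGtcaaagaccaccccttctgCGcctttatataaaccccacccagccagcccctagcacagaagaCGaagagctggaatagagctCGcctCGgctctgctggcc
Peg3: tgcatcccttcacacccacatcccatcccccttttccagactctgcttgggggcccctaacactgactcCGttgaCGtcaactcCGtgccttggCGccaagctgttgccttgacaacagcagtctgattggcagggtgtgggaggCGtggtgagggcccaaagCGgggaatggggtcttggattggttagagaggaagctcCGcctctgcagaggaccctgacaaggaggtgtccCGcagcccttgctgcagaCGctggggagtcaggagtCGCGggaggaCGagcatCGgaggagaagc
Mest: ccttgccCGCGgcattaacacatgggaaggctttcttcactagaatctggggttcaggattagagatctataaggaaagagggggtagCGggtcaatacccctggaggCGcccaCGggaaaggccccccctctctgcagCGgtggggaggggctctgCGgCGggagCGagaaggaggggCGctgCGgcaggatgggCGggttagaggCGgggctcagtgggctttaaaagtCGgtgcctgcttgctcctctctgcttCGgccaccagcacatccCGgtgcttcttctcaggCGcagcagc
Plagl1: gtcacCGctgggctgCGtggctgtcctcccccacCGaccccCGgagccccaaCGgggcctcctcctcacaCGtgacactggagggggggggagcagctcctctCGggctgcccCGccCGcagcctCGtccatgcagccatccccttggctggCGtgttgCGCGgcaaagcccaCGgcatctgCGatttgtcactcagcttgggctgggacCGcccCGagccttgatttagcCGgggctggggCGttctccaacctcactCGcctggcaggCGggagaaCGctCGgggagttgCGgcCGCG
These windows held 13 CpG pairs for Meg3, 13 for Peg3, 17 for Mest and 26 for Plagl1, against a median of 7 over the 32851 RefSeq promoters of this length. Promoters of the genes with no probe set past the threshold held 9 (Dlk1), 11 (Ndn), and 45 and 9 (both entries of Grb10), so the CpG count did not separate these genes from the others. Further entries held 1 CpG pair for Meg3, and 8 and 17 for Mest.

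The promoters of Meg3 and Peg3 shared the palindrome TGACGTCA, known as the cAMP response element. It was chosen after the sequences had been read, it reads the same on both strands, and no other motif was searched. It starts 57 bases before the transcript start in Meg3 and 178 bases before it in Peg3, and is in capitals here with its neighbouring bases (chr12:109540928-109540957, plus strand, and chr7:6730579-6730608, minus strand).
Meg3: gcagaatgcgcTGACGTCAaagaccacccc
Peg3: actgactccgtTGACGTCAactccgtgcct
Of all promoters of this length, 588 (1.79%) held it. A match describes these letters and is no measurement of binding.

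Every array had been scaled to a trimmed mean of 150. The median signal over probe sets was similar on 9 arrays, at 31.2 to 43.4. It was higher on 3, 63.2 on TA 5, 69.6 on TA 3 and 87.2 on EOM 1. The 3' to 5' ratio of beta-actin, which rises as amplified RNA is shortened, was 100.2 to 165 on these 3 and 5.27 to 68.6 on the others. The same ratio for Gapdh was 4.92 to 34.5 over the 12 arrays, with TA 5 the highest. TA 3 (17.3) and EOM 1 (9.88) were inside the span of the 9 arrays with a lower median, 4.92 to 24.5. Gapdh thus did not separate the 3 arrays from the rest as beta-actin did. Results are given with all arrays and, where it matters, without EOM 1 or without all 3. Abcg2, the pump behind the side population phenotype, had a mean signal of 649.7 ± 322 for EOM against 2668 ± 728 for TA (SD, n = 6), with its lowest value, 100.3, on EOM 1. In bulk samples such as these, fewer cells of a type and less RNA per cell cannot be told apart.

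Genes of this group that differed were all higher in EOM. Of the 33 probe sets, 24 passed the filter on low signals, and 7 of these 24 were higher in EOM (limma, adjusted p under 0.05): 4 of Meg3 and 1 each of Peg3, Mest and Plagl1. None was lower. Over all 27022 tested probe sets, 8.23% were called, 3.20% higher and 5.03% lower. The median difference of the 24, on the log2(signal + 16) scale and EOM minus TA, was 0.68, against -0.03 over all tested probe sets, and 21 of the 24 differences were positive, against 47.7% of all. The probe sets of 1 gene share RNA and often sequence, so they are not independent of each other. In 5 of the 24, all EOM arrays lay above all TA arrays, and in 0 below. Over all tested probe sets the groups did not overlap in 5.43%, with EOM above in 1.90% and below in 3.53%. Without EOM 1, 11 of the 24 were higher, namely all 7, 2 further ones of Meg3 and 2 of Ndn, and 0 lower, where 7.88% of all tested probe sets were called higher and 8.26% lower.

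**Figure D1:**
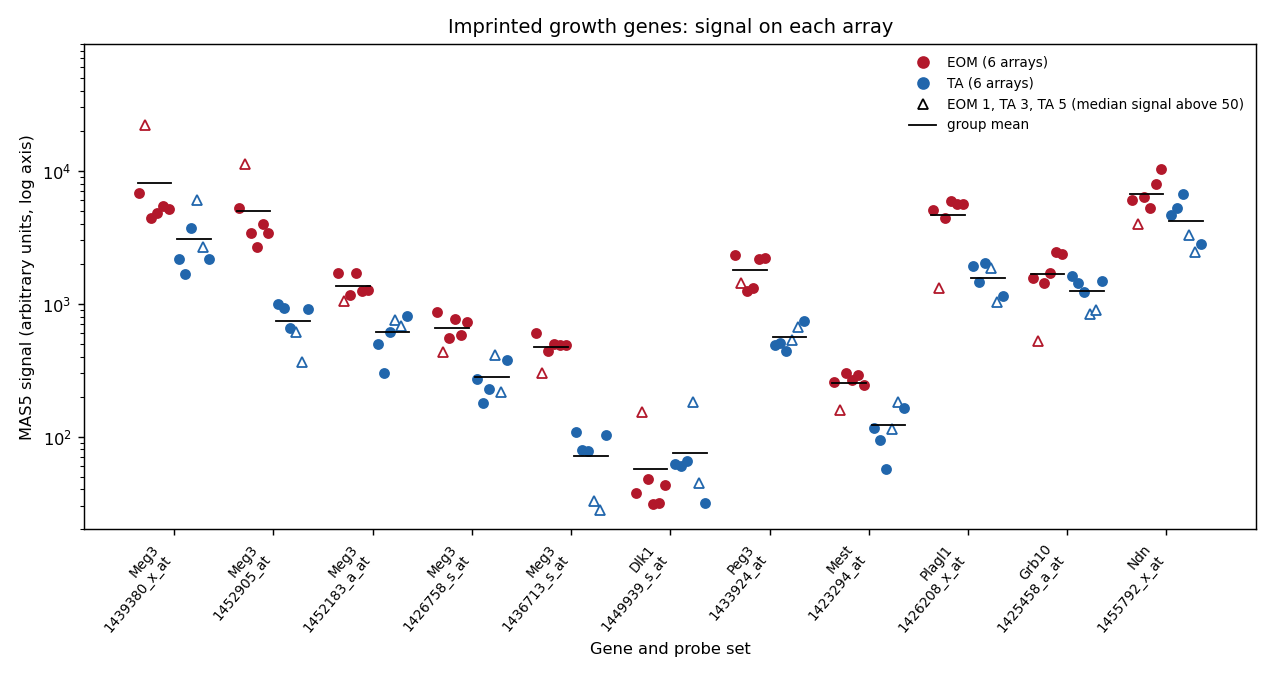
MAS5 signal in arbitrary units (log axis) on each of the 12 arrays for the 11 probe sets that have the highest mean of their gene or passed the threshold. Points are single arrays, open triangles the 3 arrays with a median signal above 50, and bars group means. For 4 Meg3 probe sets and 1 of Peg3 the EOM and TA points do not overlap, while those of Dlk1, Grb10 and Ndn do.

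**Figure D2:**
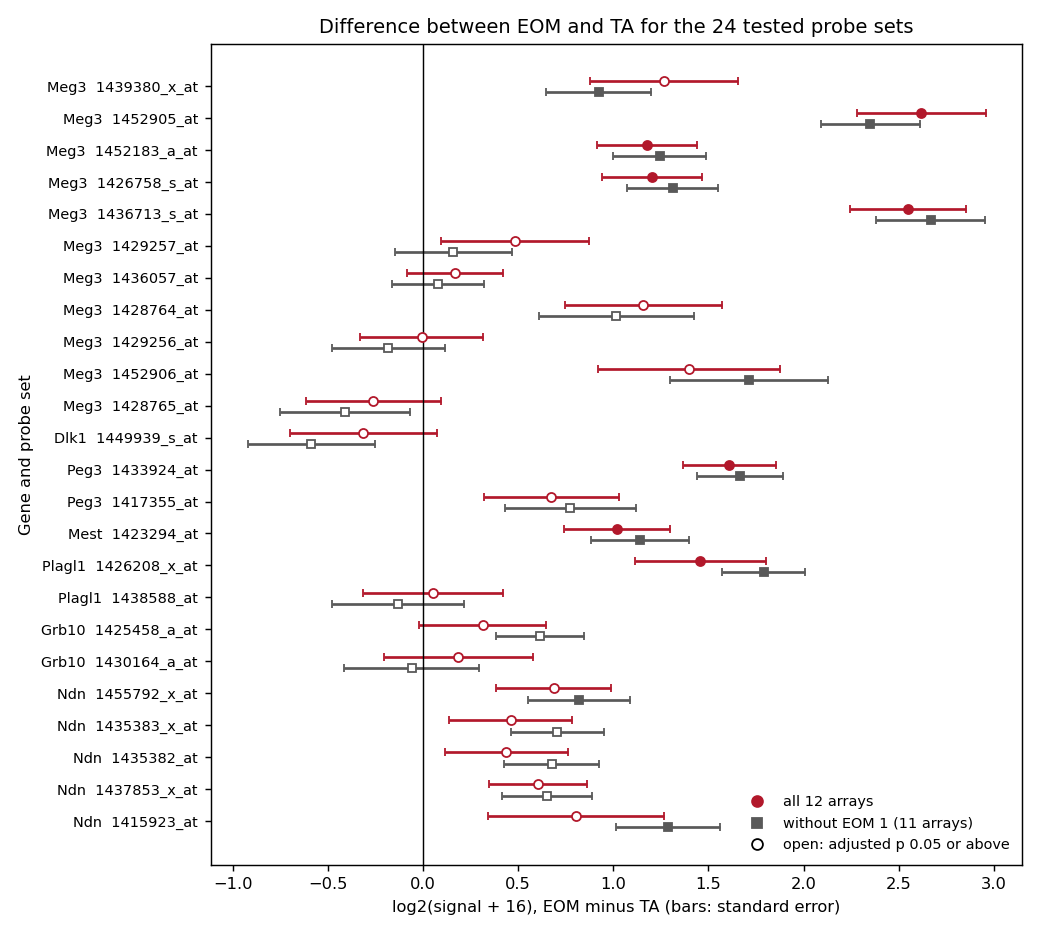
Difference between EOM and TA in log2(signal + 16) with its standard error, for the 24 tested probe sets, from all 12 arrays (circles) and without EOM 1 (squares). Filled symbols have an adjusted p under 0.05: 7 circles and 11 squares are filled, all to the right of 0.

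Meg3 is a maternally expressed long noncoding RNA that restrains growth in several cell types, and it had the largest differences of the group. The signal of probe set 1452905_at was 2675 on the lowest EOM array, 3708 at the median and 11164 on the highest, against 363, 785 and 992 in TA. Every EOM array lay above every TA array, and EOM 1 was the highest. The means were 4992 ± 3145 for EOM against 743 ± 242 for TA (SD, n = 6), and the log2 difference was 2.62 ± 0.34 (SE, adjusted p = 5.39e-05). For 1436713_s_at, the signal was 301 on the lowest EOM array, 487 at the median and 606 on the highest, against 28.2, 78.6 and 109 in TA. The groups again did not overlap, although here EOM 1 was the lowest of the EOM arrays. Its log2 difference was 2.55 ± 0.30 (SE, adjusted p = 2.35e-05).

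Smaller differences were seen with 2 further Meg3 probe sets. The signal of 1452183_a_at was 1055 on the lowest EOM array, 1261 at the median and 1711 on the highest, against 302, 642 and 814 in TA, a log2 difference of 1.18 ± 0.26 (SE, adjusted p = 0.00758). For 1426758_s_at, the signal was 432 on the lowest EOM array, 655 at the median and 862 on the highest, against 179, 249 and 409 in TA, a log2 difference of 1.20 ± 0.26 (SE, adjusted p = 0.00640). Neither overlapped between the groups, and in both EOM 1 was the lowest EOM array. With each array centred on its median, their adjusted p-values were 0.0504 and 0.0602. Suffixes of the names say what the probes match: a for transcripts of 1 gene, s for several transcripts, and x for probes that may also bind unrelated sequence.

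The Meg3 probe sets did not all behave alike: 4 were called and 7 were not. In 1439380_x_at, the Meg3 probe set with the highest mean, the signal was 4451 on the lowest EOM array, 5305 at the median and 22149.9 on the highest, against 1665, 2419 and 5983 in TA. EOM 1 stood far above the other EOM arrays, and TA 3 lay within the EOM range. The log2 difference was 1.27 ± 0.39 (SE, adjusted p = 0.0541) with all arrays and 0.92 (adjusted p = 0.0276) without EOM 1. Without TA 3, where it was 1.49, the adjusted p was 0.0205.

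For Meg3 1452906_at, the signal was 12.6 on the lowest EOM array, 88.9 at the median and 142 on the highest, against 5.5, 7.5 and 71.6 in TA. The groups overlapped, since EOM 1 at 12.6 lay among the low TA arrays and TA 5 at 71.6 among the EOM arrays. Its log2 difference was 1.40 ± 0.48 (SE, adjusted p = 0.0867), and without EOM 1 it was 1.71 (adjusted p = 0.00728). Most TA values of this probe set are at a level that can be background, so the size rests on the constant added to the signal: it was 0.74 with 64 and 2.19 with 1. In 1428764_at, 5 of 6 EOM arrays lay above all TA arrays, EOM 2 being at 35.6, and the log2 difference was 1.16 ± 0.41 (SE, adjusted p = 0.104). Without EOM 2 it was 1.42 (adjusted p = 0.0402). The lowest TA values were those of TA 3 at 7.2 and TA 5 at 17.1, and without the 3 arrays that stand apart the difference was 0.48 (adjusted p = 0.346).

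The other 4 Meg3 probe sets, 1429257_at, 1436057_at, 1429256_at and 1428765_at, had log2 differences of 0.48, 0.17, -0.01 and -0.26. Their adjusted p-values ran from 0.581 to 0.995, and the groups overlapped in each. Without EOM 1 they were 0.16, 0.08, -0.18 and -0.41. With all arrays, the 95% intervals were -0.34 to 1.30, -0.36 to 0.70, -0.69 to 0.67 and -1.01 to 0.49, and all 4 end below the difference of 1452905_at. Probe sets of Meg3 thus gave log2 differences from -0.26 to 2.62, with a median of 1.18 over the 11. Signals of 1429257_at, 1436057_at, 1429256_at and 1428765_at were low, with medians of 24.5 to 102 in EOM and 33.6 to 91.5 in TA. EOM medians of the 4 called probe sets were 487 to 3708. Signals as low as those of the uncalled ones can be background. With EOM medians of 88.9 and 124, 1452906_at and 1428764_at were also low, and their log2 differences were 1.40 and 1.16. Why the Meg3 probe sets differ from each other was not tested.

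Dlk1, the paternally expressed neighbour of Meg3, encodes a transmembrane protein of the Delta family that marks fetal and progenitor cells and restrains adipocyte differentiation. The signal of its tested probe set, 1449939_s_at, was 30.9 on the lowest EOM array, 40.3 at the median and 152 on the highest, against 31.8, 61.3 and 182 in TA. The groups overlapped fully, and the highest value of each was on an array that stands apart, EOM 1 and TA 3. The log2 difference was -0.31 ± 0.39 (SE, adjusted p = 0.759), with a 95% interval of -1.13 to 0.50. Without EOM 1 it was -0.59 (adjusted p = 0.265), and without TA 3 it was -0.06 (adjusted p = 0.971). The second probe set, 1442724_at, was under the filter, with signals of 3.8 to 29.8 in EOM and 3.5 to 21.2 in TA. Signals of the Dlk1 probe sets are thus mostly at a level that can be background.

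Rian and Mirg are maternally expressed noncoding RNA genes downstream of Meg3 that host small nucleolar RNAs and microRNAs. For Mirg 1457030_at, the signal was 90.2 on the lowest EOM array, 122 at the median and 254 on the highest, against 3.4, 8.45 and 62.6 in TA. The groups did not overlap, and the log2 difference was 2.19 ± 0.39 (SE, adjusted p = 0.00123). Since TA signals here are mostly at a level that can be background, the size rests on the added constant: it was 1.25 with 64 and 3.24 with 1, past the threshold in both. Its other probe set, 1440097_at, had -0.09 (adjusted p = 0.961), with TA arrays from 4.8 to 136 around the narrower EOM range.

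Rian had 4 probe sets, of which 2 passed the threshold. In 1440001_at, the signal was 87.5 on the lowest EOM array, 156 at the median and 202 on the highest, against 17.7, 53.9 and 82.7 in TA, with no overlap and a log2 difference of 1.31 ± 0.31 (SE, adjusted p = 0.0124). In 1452899_at the difference was 1.24 ± 0.37 (SE, adjusted p = 0.0458), with overlap, and this call was lost in 15 of 23 alternatives. For 1428055_at, the Rian probe set with the highest mean, the log2 difference was 0.91 ± 0.28 (SE, adjusted p = 0.0533), and for 1427580_a_at it was 0.21 (adjusted p = 0.863). Some probe sets of each of the 3 maternally expressed RNA genes of the cluster were therefore called higher, and Dlk1 was not called. The difference between these genes was itself not tested. Dlk1 signals were mostly at a level that can be background, so no contrast within the cluster is read from its missing call.

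**Figure D3:**
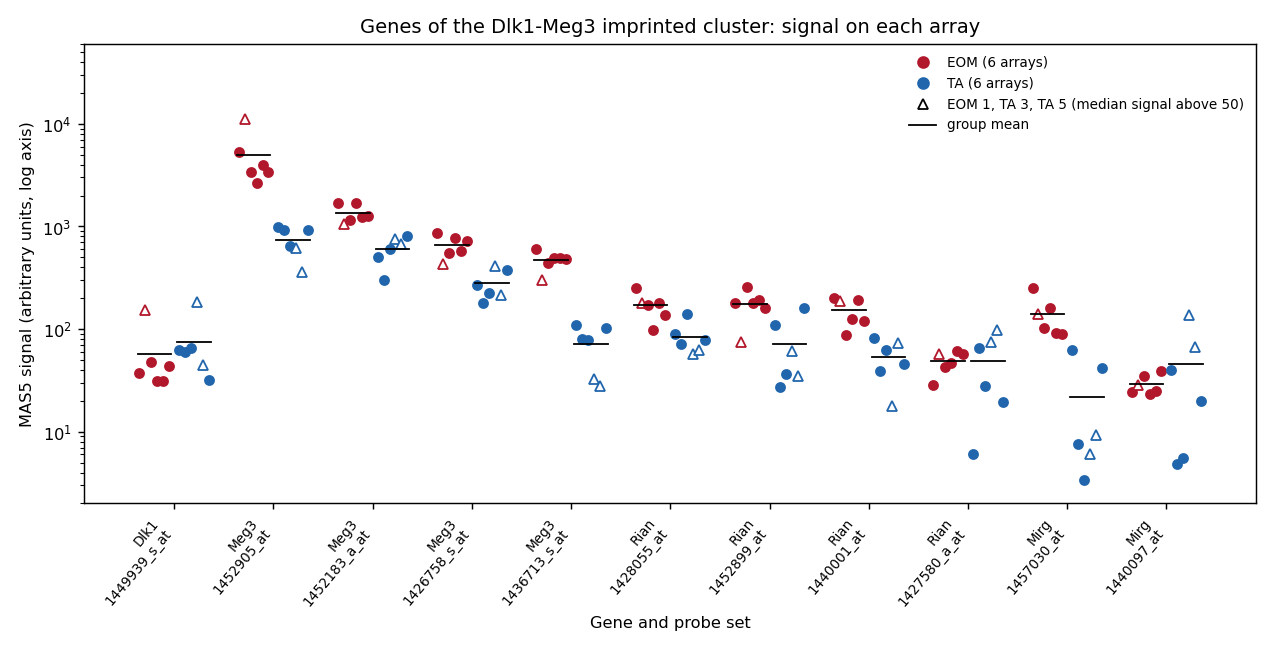
MAS5 signal in arbitrary units (log axis) on each array for the tested Dlk1 probe set, the 4 Meg3 probe sets past the threshold, and all probe sets of Rian and Mirg. Points are arrays (open triangles: EOM 1, TA 3 and TA 5) and bars group means. The EOM and TA points are apart for the 4 Meg3 probe sets, Rian 1440001_at and Mirg 1457030_at, and overlap for Dlk1.

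Peg3 encodes a paternally expressed zinc finger protein linked to cell survival and to stem cell identity in muscle and other tissues. The signal of 1433924_at was 1254 on the lowest EOM array, 1798 at the median and 2338 on the highest, against 443, 521 and 736 in TA. Every EOM array lay above every TA array, and EOM 1 at 1423 was inside the EOM range. The means were 1783 ± 500.1 for EOM against 563 ± 113 for TA (SD, n = 6), and the log2 difference was 1.61 ± 0.24 (SE, adjusted p = 0.000267), the narrowest standard error among the 24 tested. This call held in all 23 alternatives, between 1.52 and 1.72.

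The signal of the other tested Peg3 probe set, 1417355_at, was 123 on the lowest EOM array, 154 at the median and 439.7 on the highest, against 55.1, 111 and 246 in TA. EOM 6 was the highest EOM array and TA 5, at 246, lay above 5 of the EOM arrays. The log2 difference was 0.67 ± 0.35 (SE, adjusted p = 0.316), and without the 3 arrays that stand apart it was 1.09 (adjusted p = 0.0222). Without EOM 6 alone it was 0.43 (adjusted p = 0.591). The remaining 3 Peg3 probe sets were under the filter. In 1417356_at the signals were 4.9 to 37.0 in EOM and 1.3 to 9.2 in TA, with 4 of 6 EOM arrays above all TA arrays.

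Plagl1, also called Zac1, encodes a paternally expressed zinc finger transcription factor that regulates other imprinted genes and slows the cell cycle. The signal of 1426208_x_at was 1315 on the lowest EOM array, 5335 at the median and 5937 on the highest, against 1029, 1663 and 2014 in TA. On 5 EOM arrays it was at least 4400.3, above every TA array, and EOM 1, at 1315, lay within the TA range. The means were 4664 ± 1732 for EOM against 1572 ± 423 for TA (SD, n = 6), the log2 difference was 1.46 ± 0.35 (SE, adjusted p = 0.0114), and without EOM 1 it was 1.79 (adjusted p = 1.03e-05). With each array centred on its median the call was lost (adjusted p = 0.0885). The x suffix means that part of its probes may bind other sequence, and the other tested Plagl1 probe set, 1438588_at, had a log2 difference of 0.05 ± 0.37 (SE, adjusted p = 0.971) with a 95% interval of -0.73 to 0.82. Signals of 1438588_at were 24.2 to 114 in EOM and 25.3 to 89.1 in TA, a level that can be background. The last, 1450533_a_at, was under the filter, with signals of 2.5 to 29.2 in EOM and 1.1 to 6.5 in TA.

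Mest, also called Peg1, encodes a paternally expressed protein of the hydrolase fold family found in mesoderm and in growing fat tissue. The signal of its single probe set, 1423294_at, was 159 on the lowest EOM array, 263 at the median and 301 on the highest, against 56.9, 115 and 181 in TA. On 5 EOM arrays the signal was at least 246, above all TA arrays, and EOM 1, at 159, fell below TA 5 and TA 6. The log2 difference was 1.02 ± 0.28 (SE, adjusted p = 0.0284), and without EOM 1 it was 1.14 (adjusted p = 0.00447). The call was close to the threshold: it was lost in 11 of 23 alternatives, among them quantile normalization (adjusted p = 0.0603) and leaving out any of 8 single arrays (adjusted p up to 0.0773), while the difference stayed between 0.80 and 1.29.

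Grb10 encodes an adaptor protein that binds activated insulin and insulin-like growth factor receptors and dampens their signal. The signal of 1425458_a_at was 525 on the lowest EOM array, 1624 at the median and 2446 on the highest, against 836, 1323 and 1614 in TA. EOM 1, at 525, was the lowest of all 12 arrays, and the groups overlapped. The log2 difference was 0.31 ± 0.33 (SE, adjusted p = 0.709), with a 95% interval of -0.39 to 1.02, and without EOM 1 it was 0.61 (adjusted p = 0.0825), while without EOM 5 it was 0.17 (adjusted p = 0.884). For 1430164_a_at it was 0.19 (adjusted p = 0.879), and 1425457_a_at was under the filter. No Grb10 probe set passed in any alternative.

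Ndn encodes necdin, a paternally expressed protein of the MAGE family that halts proliferation and favours differentiation in neurons and muscle precursors. All 5 tested probe sets had higher means in EOM, by 0.44 to 0.80 on the log2 scale, and none passed the threshold (adjusted p from 0.192 to 0.528). In 1455792_x_at, the Ndn probe set with the highest mean, the signal was 3994 on the lowest EOM array, 6191 at the median and 10378 on the highest, against 2436, 3989 and 6701 in TA. EOM 5 and EOM 6 lay above all TA arrays, and TA 3, TA 5 and TA 6 lay below all EOM arrays. The log2 difference was 0.69 ± 0.30 (SE, adjusted p = 0.206), and without EOM 1 0.82 (adjusted p = 0.0434). In 1415923_at, the signal was 162 on the lowest EOM array, 1231 at the median and 1606 on the highest, against 263, 535 and 1001 in TA. EOM 1, at 162, was the lowest of all arrays and the other 5 EOM arrays lay above all TA arrays, with a log2 difference of 0.80 ± 0.46 (SE, adjusted p = 0.371). Without EOM 1 that difference was 1.29 (adjusted p = 0.00266), and 2 of the 5 Ndn probe sets then passed. Without all 3 arrays that stand apart 1 of the 5 passed: 1415923_at had 0.97 (adjusted p = 0.00409) and 1455792_x_at 0.59 (adjusted p = 0.113).

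Over the members, 9 probe sets were under the filter on low signals: 3 of Peg3, 3 of Ndn and 1 each of Dlk1, Plagl1 and Grb10. Their highest signal was 164.2, on EOM 1 in Ndn 1438978_x_at, and without EOM 1 it was 85.4. When every probe set was tested without the filter, 0 of these 9 passed (limma). Low signals of this kind can be background, and no level is read from them.

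Likeness over arrays was described by the Pearson correlation of log2 values centred within each group, for the probe set with the highest mean of each member, against all tested named genes. For Meg3 this was 1439380_x_at, which was not called and was highest on EOM 1, as was 1452905_at. In 1452183_a_at, 1426758_s_at and 1436713_s_at EOM 1 was the lowest EOM array, so the Meg3 values describe 1 probe set and not the gene. The highest values over the 12 arrays were Pcolce for Meg3 (0.996), Tmem158 for Dlk1 (0.985), Ovca2 for Peg3 (0.849), Ppil1 for Mest (0.949), Degs1 for Plagl1 (0.976), Cd47 for Grb10 (0.981) and Txndc9 for Ndn (0.932). Next came Abhd14a (0.984), Tbcd (0.960), Casp9 (0.836), Slc8b1 (0.944), 4930579G24Rik (0.967), Prrx1 (0.977) and Tmx1 (0.922), in the same order. Without EOM 1, TA 3 and TA 5 these 14 values were 0.78 to 0.98 over 9 arrays. The genes were picked as the highest among 13067 over all 12 arrays, so the 9 arrays are no independent check. Arrays share scaling and median signal, which move such values: between members, the correlation of Meg3 with Dlk1 was 0.85 over 12 arrays and 0.095 over the 9, and that of Plagl1 with Grb10 was 0.79 and 0.18.

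Among 43 other genes reported as imprinted in some mouse tissue, several of them in placenta alone, few differed. Of the 28 that could be tested, each represented by the probe set of highest mean, 2 were higher (Slc38a4 and Mirg) and 1 was lower (Asb4), where 4.05% of all 13067 tested genes were higher and 6.81% lower. The median log2 difference of the 28 was 0.18, against -0.04 over all tested genes. A further 9 genes were under the filter, and 6 had no probe set of their own. Without EOM 1, 6 were higher and 1 lower, where 10.0% of all tested genes were higher and 10.5% lower.

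Slc38a4, a paternally expressed amino acid transporter, was higher in EOM. The signal of 1428111_at was 41.1 on the lowest EOM array, 330.0 at the median and 456 on the highest, against 5.7, 15.2 and 51.7 in TA. The groups overlapped through EOM 1 alone, which at 41.1 lay below TA 3, and the log2 difference was 3.00 ± 0.46 (SE, adjusted p = 0.000287). As most TA signals are at a level that can be background, its size rests on the added constant: it was 2.00 with 64 and 3.85 with 1, past the threshold in both. Asb4, a maternally expressed adaptor of ubiquitin ligases, fell. Its signal in 1433919_at was 15.8 on the lowest EOM array, 36.9 at the median and 60.3 on the highest, against 69.6, 137 and 316 in TA, with no overlap and a log2 difference of -1.66 ± 0.36 (SE, adjusted p = 0.00601), or -1.07 with a constant of 64. Its second probe set, 1423422_at, had -0.55 (adjusted p = 0.451), and there the groups overlapped. Sgce, the paternally expressed epsilon-sarcoglycan, had a log2 difference of 0.98 ± 0.58 (SE, adjusted p = 0.390) with all arrays. Without EOM 1, where its signal was 164 against at least 2227 on the other EOM arrays, it was 1.65 (adjusted p = 0.000258).

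The fetal growth factor Igf2, its clearance receptor Igf2r and the cell cycle inhibitor Cdkn1c, which lie at the centre of imprinted growth control, did not pass. For Igf2 1448152_at the signal was 517 ± 73.9 for EOM against 611 ± 207 for TA (SD, n = 6), with a log2 difference of -0.17 (95% interval -0.72 to 0.37). For Igf2r 1424112_at the difference was 0.00 (95% interval -0.68 to 0.68), and without EOM 1, its highest array at 570, it was -0.21. The other Igf2r probe set, 1424111_at, had -0.46 (95% interval -0.99 to 0.06, adjusted p = 0.334). The signal of Cdkn1c 1417649_at was 2830.2 on the lowest EOM array, 3649 at the median and 6762 on the highest, against 1262, 2471 and 5959.9 in TA, and its log2 difference was 0.60 (95% interval -0.11 to 1.31). Adjusted p-values of 1448152_at, 1424112_at and 1417649_at with all arrays were 0.816, 0.998 and 0.359.

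**Figure D4:**
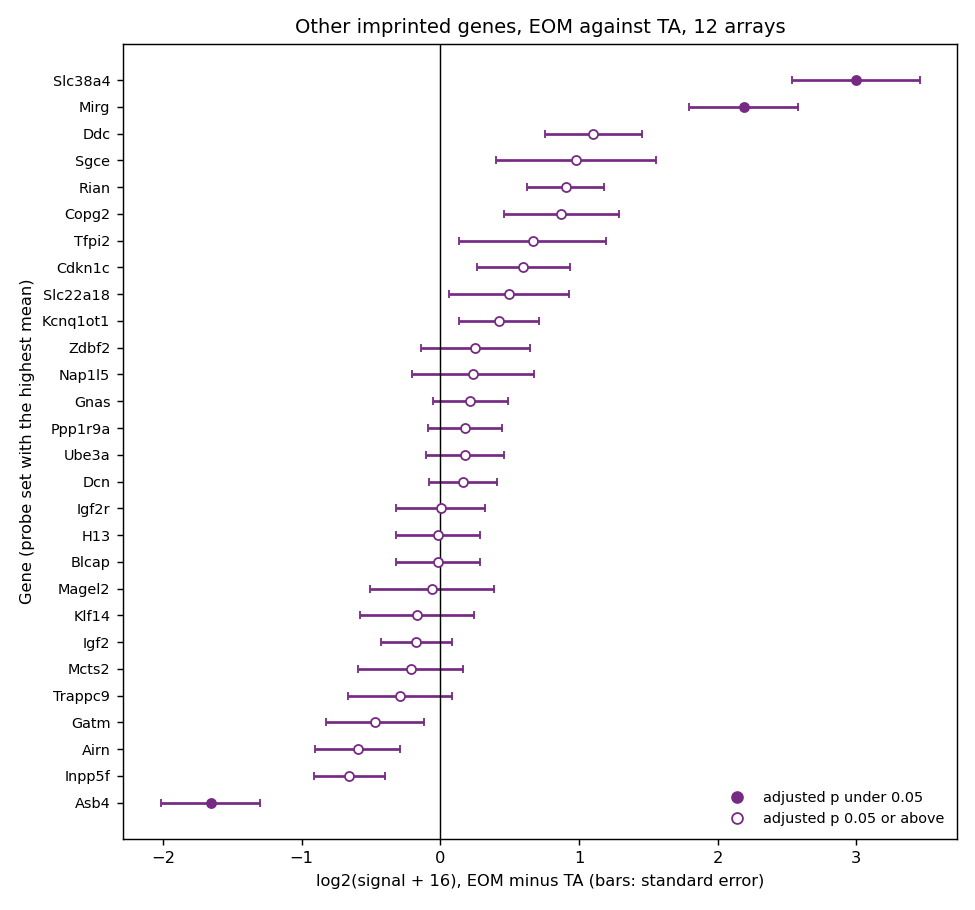
Difference between EOM and TA in log2(signal + 16) with its standard error, from all 12 arrays, for the 28 other imprinted genes that were tested (probe set of highest mean per gene). Filled points, with an adjusted p under 0.05, are Slc38a4 at 3.00, Mirg at 2.19 and Asb4 at -1.66. The other 25 are open.

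Genes that set or keep imprints were mostly not called. Of 18 such genes 14 were tested, with a median log2 difference of -0.11, and 1 was lower, Dnmt1, the maintenance DNA methyltransferase. The signal of Dnmt1 1435122_x_at was 189 on the lowest EOM array, 237 at the median and 446 on the highest, against 337, 581 and 1669 in TA, and its log2 difference was -1.24 ± 0.37 (SE, adjusted p = 0.0461). The highest value was on TA 3, and the call was lost in 13 of 23 alternatives, among them leaving out TA 3 (log2 difference -0.96, adjusted p = 0.0843). The other 2 tested Dnmt1 probe sets did not pass, with log2 differences of -1.37 (1447877_x_at, adjusted p = 0.0815) and -0.32 (1422946_a_at, adjusted p = 0.536). Of 13 genes of the fetal growth programme, such as the Lin28 and Hmga families, 8 were tested, with a median of 0.34, and 1 was higher. This was Gpc3, an X-linked glypican that restrains fetal growth: the signal of 1450990_at was 330.4 on the lowest EOM array, 662 at the median and 1101 on the highest, against 101, 191 and 274 in TA, with no overlap and a log2 difference of 1.76 ± 0.31 (SE, adjusted p = 0.00106). These shares, 1 of 14 and 1 of 8, stand beside 6.81% of all tested genes lower and 4.05% higher.

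Markers of several other cell types also differed in this contrast. The counts below stand beside 4.05% of all 13067 tested genes higher and 6.81% lower. Of 14 endothelial markers 12 were lower in EOM (median log2 difference -3.03), and their summed signal was 2267 to 3907 on EOM arrays and 17907 to 44353 on TA arrays. Of 9 tested pericyte and smooth muscle markers 8 were lower, with sums of 3303 to 5943 and 15404 to 31520. Of 10 leukocyte markers 8 were lower, with sums of 479.9 to 4634 and 4739 to 13742. Fibroblast markers went the other way: 6 of 12 were higher and 0 lower (median 1.30), with overlapping sums of 116144 to 289387 in EOM and 73782 to 185837 in TA, the highest on EOM 1. Gsn made most of the highest sum of each group, with 154812 on EOM 1 and 111731 on TA 3. Its own log2 difference was -0.14 and did not pass.

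Myogenic progenitor markers had sums of 158.6 to 695.5 in EOM and 858.0 to 2379 in TA, and 2 of 6 tested were lower. Myofibre markers had sums of 127.9 to 892.2 and 294.4 to 1049, with 1 of 5 tested lower. Of 4 tested adipocyte markers 3 were lower and 1 higher, with sums of 4501 to 8974 and 19508 to 32077. Most of these sums came from Fabp4 (mean 2977 for EOM, 14412 for TA) and Lpl (3439 and 12371). Adipoq, Cidec and Lep were under the filter, so these sums do not measure adipocyte content. None of 6 Schwann cell markers passed, and their sum was 16065 on EOM 1 against 710.7 to 3620 on the other EOM arrays. Of the sum on EOM 1, 15306 came from Mbp, read by a probe set with the x suffix, so that sum rests mostly on Mbp. Among EOM arrays, Sox10 and S100b were also highest on EOM 1, and Ngfr, Erbb3 and Cdh19 were not. Of 11 proliferation genes 1 was lower, with sums of 3668 to 6190 and 4514 to 5353. Beside 6.81% of all tested genes lower, the single calls of the myofibre and proliferation lists are not read as a difference of those lists. No marker was at 0 on any array, but low signals can be background, so this does not show that a cell type was present. The part of these cell types, of array quality and of EOM 1 in the differences of Meg3, Peg3, Plagl1 and Mest was not tested.

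**Figure D5:**
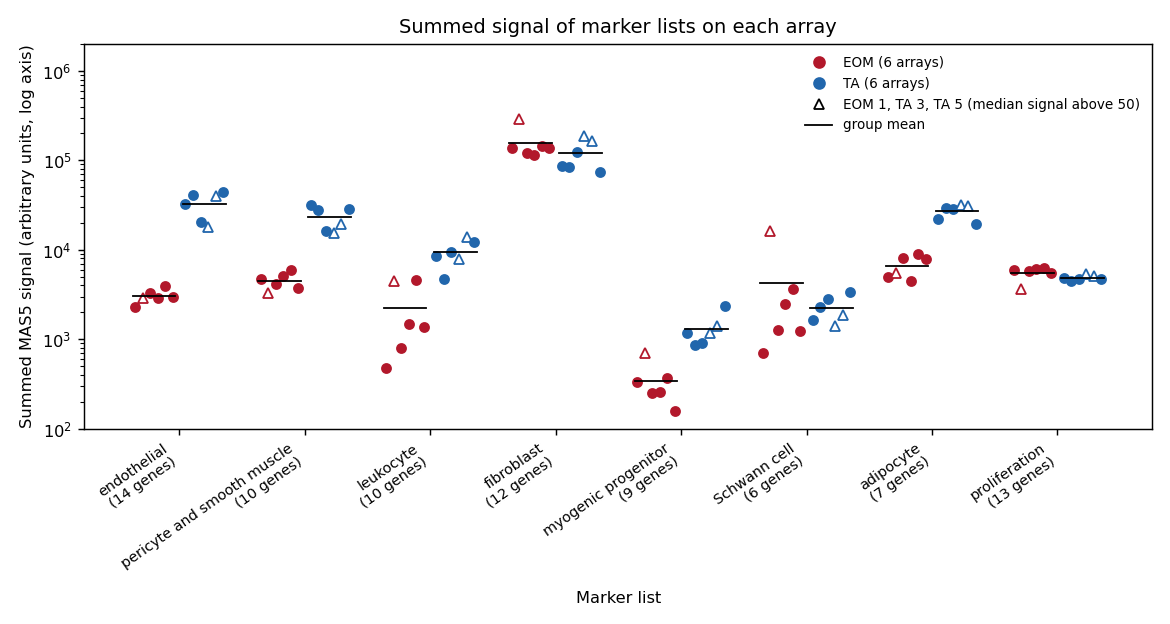
Summed MAS5 signal in arbitrary units (log axis) of 8 marker lists on each array, with group means as bars and open triangles for EOM 1, TA 3 and TA 5. Endothelial, pericyte and smooth muscle, leukocyte, myogenic and adipocyte sums are lower on every EOM array than on every TA array, and fibroblast sums overlap.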

How the data were processed

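The deposited table gives signal intensity on a linear scale for each probe set of an Affymetrix whole-genome mouse array. Per the labels' protocols, the RNA of each preparation went through 2 rounds of linear amplification and onto 1 array, and the submitters' processing notes name MAS 5, which summarizes the probes of a set into 1 signal. The authors had scaled each array: with 2% trimmed from both tails, the mean was 150 on all 12, which raises background with signal on arrays with little target. Array signals carry no count, and their number limits the precision. Groups and replicate numbers come from the sample titles.

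Probe sets were named through the platform annotation (34945 with 1 symbol, 932 with several and 9160 with none). Values were log2(signal + 16) with no further scaling, so fold changes of low signals are understated. The 64 controls were removed, and so were 40% of the probe sets, those of lowest mean signal. The test was that of limma 3.58.1 (R 4.3.3), two-sided with an intensity trend, with Benjamini-Hochberg adjustment over 27022 probe sets and a threshold of 0.05. Differences are EOM minus TA.

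The members and lists were chosen with earlier results of these data known. Named were every member probe set, up to 4 genes past the threshold of each imprinting list, Igf2, Igf2r and Cdkn1c whatever their result, Rian and Sgce (chosen after their values were seen), and the 2 genes most like each member over the arrays. Cell type markers are given as counts and sums, with some named where few genes made most of a sum (chosen after their values were seen). Alternatives changed the constant, scaling, filter, intensity trend, weights, a replicate block, a covariate (3' to 5' ratio of beta-actin), the representation of a gene, and the arrays. The replicate numbers were taken not to pair the samples: 2 of 6 same-numbered pairs had correlated deviations over 0.1.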

Additional observations from a re-analysis of the deposited data

Results flagged for a closer look

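In 17 of 66 combinations of a member probe set and a group of 6 arrays, 1 array lay so far from its nearest neighbour that the gap passed Dixon's limit for 6 values, taken on log2(signal + 16). Chance alone flags about 5% of groups in this way, and probe sets on 1 array are not independent. EOM 1 was that array in 13 of the 17, and the other arrays of the group are given as their range.

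On EOM 1 the signal was far above the other EOM arrays in 7 probe sets. Meg3 1439380_x_at was 22149.9 on EOM 1 against 4451 to 6829, Meg3 1429257_at was 406 on EOM 1 against 80.2 to 122, and Dlk1 1449939_s_at was 152 on EOM 1 against 30.9 to 48.3. Grb10 1430164_a_at was 114 on EOM 1 against 21.9 to 41.8. Among probe sets under the filter, Peg3 1447732_x_at was 83.8 on EOM 1 against 0.700 to 10.8, Ndn 1438978_x_at was 164 on EOM 1 against 1.2 to 24.1, and Ndn 1456575_at was 37.1 on EOM 1 against 1.2 to 4.5.

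EOM 1 was far below the others in 6 probe sets. Mest 1423294_at was 159 on EOM 1 against 246 to 301, Plagl1 1426208_x_at was 1315 on EOM 1 against 4400.3 to 5937, and Grb10 1425458_a_at was 525 on EOM 1 against 1442 to 2446. Ndn was low in 3 probe sets: 1435383_x_at was 2046 on EOM 1 against 4757 to 7629, 1435382_at was 1792 on EOM 1 against 4094 to 6692, and 1415923_at was 162 on EOM 1 against 1148 to 1606.

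The other 4 cases fell on 3 arrays. Meg3 1428764_at was 35.6 on EOM 2 against 116 to 196, and Peg3 1417355_at was 439.7 on EOM 6 against 123 to 199.9. Under the filter, Peg3 1447731_at was 30.7 on TA 3 against 0.600 to 7.2 and Ndn 1438978_x_at was 85.4 on TA 3 against 8.8 to 21.7 of the TA arrays.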

How the results depend on the processing

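Of 547 member values recomputed under the alternatives, 496 kept their direction and side of the threshold, 14 lost it, 18 newly passed and 19 changed sign. The 2225 probe sets called in all became 1445 with median centring, 5488 with array weights, 1579 to 4361 with 1 array left out (the most without EOM 1) and 4675 without EOM 1, TA 3 and TA 5. Of the calls, 38.9% were higher in EOM, and 48.8% without EOM 1. The 7 member probe sets became 4 with median centring, 11 with weights, 6 to 11 with 1 array left out and 11 without the 3 arrays, with 0 lower in each. The 3 other imprinted genes became 8 with weights, 5 with the covariate, 3 to 7 with 1 array left out, 6 without the 3 arrays and 6 with the probe sets of a gene averaged. The 1 regulator became 0 with a constant of 1, quantile normalization, no filter, no intensity trend or the replicate block, 2 with weights, 0 to 2 with 1 array left out and 2 without the 3 arrays. The fetal growth count stayed at 1 in each. Under the replicate block, 1632 probe sets and 6 member probe sets passed, Mest being lost (adjusted p = 0.0691). The deviations of same-numbered arrays correlated at -0.317 to 0.157, and of the 6 EOM arrays (numbered 0, 1, 2, 3, 5 and 6) EOM 0 alone correlated best with its own number. Signs turned in values with adjusted p-values above 0.5. Meg3 1429256_at became 0.069 with quantile normalization, 0.087 with median centring, 0.18 with the covariate, 0.015 without the 3 arrays and -0.18 to 0.14 with 1 array left out. Plagl1 1438588_at became -0.10 with weights, -0.17 without the 3 arrays and -0.13 to 0.21 with 1 left out. Grb10 1430164_a_at became -0.025 without the 3 arrays and -0.060 to 0.39 with 1 left out. Igf2r 1424112_at became -9.2e-05 with a constant of 1, -0.25 with weights, -0.22 without the 3 arrays and -0.21 to 0.15 with 1 left out. The cause of these changes was not tested. Other scalings moved the median of all tested probe sets to 0.03 (quantile) and 0.07 (median centring) from -0.03. Signals near background limit the low probe sets.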
